A study of Drosophila melanogaster with 12 samples.

Results

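Peptidoglycan recognition proteins (PGRPs) were followed in adult Drosophila melanogaster heads over a light/dark day and the day of constant darkness after it. The genes were chosen by platform gene symbol from a list of 7. Of these, 4 had a probe set of their own (PGRP-SB1, PGRP-SC2, PGRP-LB and PGRP-LE, with 1 probe set each), out of 10843 genes so named on the array. PGRP-SA, PGRP-SD and PGRP-LC were not analysed here.

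PGRPs are innate immune proteins that bind peptidoglycan of the bacterial cell wall. Receptors of the family start the Toll and Imd pathways, which end in NF-κB factors that switch on antimicrobial peptide genes, many of them in the fat body. Other members are amidases, enzymes that cleave peptidoglycan, and PGRP-LB and PGRP-SC2 dampen the Imd response in this way. Several PGRP genes are themselves induced by infection.

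All flies were yellow and white mutants (y w), and no other allele or agent was named in the labels. The 6 DD arrays held heads collected in constant darkness at circadian time (CT) 4, 8, 12, 16, 20 and 24 h, counted from subjective lights-on. The 6 LD arrays held heads from the preceding light/dark day at Zeitgeber time (ZT) 4, 8, 12, 16, 20 and 24 h, counted from lights-on, after an earlier entrainment of the same kind. Each array held pooled heads sieved from frozen flies, no time point was repeated, and neither sex, age nor infection status was given. DD always followed LD, so darkness cannot be told apart from any other change between the days. Values are log2 expression made with RMA.

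Whole arrays correlated at 0.957 to 0.995, and array medians lay between 4.93 and 4.96. The 6 measured photoreceptor markers had mean levels of 8.19 to 12.13, above every array median. The 7 measured neuron markers were lower, at 3.32 to 5.75. CT12 and ZT4 stood apart in the 3' minus 5' signal of control transcripts, a sign of RNA quality, with 3.45 and 3.12, against 1.69 to 2.64 elsewhere. CT12 also had the lowest photoreceptor score and the highest muscle and male reproductive tract scores (a score is the mean over a marker list of each gene's departure from its own mean). With 1 array per time, the error of each estimate is the scatter of arrays around the fitted model, and p-values measure only that scatter.

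PGRP-SB1, a secreted amidase known as strongly induced by bacterial infection, had the widest range of the 4 genes. Its DD values from CT4 to CT24 were 8.12, 7.47, 7.40, 7.84, 7.97 and 7.03. Its LD values from ZT4 to ZT24 were 8.22, 7.497, 7.78, 8.002, 8.20 and 7.72. Both days had the same 3 high times, 4, 16 and 20 h, and the same 3 low times, 8, 12 and 24 h. The arrays at 4, 16 and 20 h lay at 7.84 to 8.12 in DD and 8.002 to 8.22 in LD, and those at 8, 12 and 24 h at 7.03 to 7.47 in DD and 7.497 to 7.78 in LD. The mean of the first set exceeded that of the second by 0.679 (log2) in DD and by 0.477 in LD. These sets of hours were picked after the values were seen, so the contrast is a description with no test. Highest and lowest arrays differed by 1.19 (log2), or 2.29-fold, and 8.0% of all tested probe sets had a wider range. Midgut markers moved in part with the same hours: at 16 and 20 h the midgut score lay between -0.887 and -0.822, and at 12 h it was 1.16 in DD and 1.25 in LD. At 4 h it was 0.595 in DD and -0.283 in LD, while PGRP-SB1 was high on both days. The part of midgut RNA in the PGRP-SB1 pattern was not tested. The covariate fit of the rhythm below uses a single 24-h curve, which cannot follow this pattern.

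PGRP-SC2, a secreted amidase known from the gut, varied little apart from higher values at CT24, ZT8 and ZT12. In DD it measured 6.78, 6.68, 6.68, 6.81, 6.72 and 6.98 from CT4 to CT24. In LD it measured 6.64, 6.997, 7.35, 6.71, 6.71 and 6.79 from ZT4 to ZT24. The 2 highest of all 12 arrays were ZT12 and ZT8, followed by CT24, and the groups overlapped. The midgut score was high at 12 h on both days, 1.16 in DD, where PGRP-SC2 was at 6.68, among its lowest values, and 1.25 in LD, where it was at 7.35, its highest. CT12 is the DD array that stood apart in RNA quality and tissue scores. At CT24, the third highest value of PGRP-SC2, the midgut score was 0.551, and at 16 and 20 h, where it was lowest, PGRP-SC2 lay at 6.72 to 6.81 in DD and at 6.71 in LD. The part of midgut RNA in these values was not tested beyond the covariate fits of the day difference and the rhythm below. The midgut score rested on 20 measured of 24 listed genes and ranged over -0.887 to 1.16 in DD and -0.858 to 1.25 in LD.

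PGRP-LB, an amidase and a target of the Imd pathway that limits it, was lower in DD than in LD at each clock time. Its DD values from CT4 to CT24 were 5.45, 5.45, 5.65, 5.49, 5.41 and 5.63. Its LD values from ZT4 to ZT24 were 5.66, 5.91, 5.95, 5.63, 5.59 and 5.65. As for PGRP-SC2, the 2 highest arrays were ZT12 and ZT8. The groups overlapped narrowly: CT12 and CT24 reached the lower LD arrays, and the other 4 DD arrays lay below every LD array.

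PGRP-LE, a receptor for the peptidoglycan type of most Gram-negative bacteria that can act inside cells, lay below the array medians on every array, so its signal was low. It measured 4.24, 4.46, 4.36, 4.28, 4.40 and 4.07 from CT4 to CT24. In LD it measured 4.16, 4.08, 3.98, 4.48, 4.33 and 4.40 from ZT4 to ZT24. The groups overlapped over most of their range. At 8 and 12 h DD was the higher day, by 0.380 and 0.379 (log2), and at 16 and 24 h DD was the lower day, with DD minus LD at -0.202 and -0.326.

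**Figure D1:**
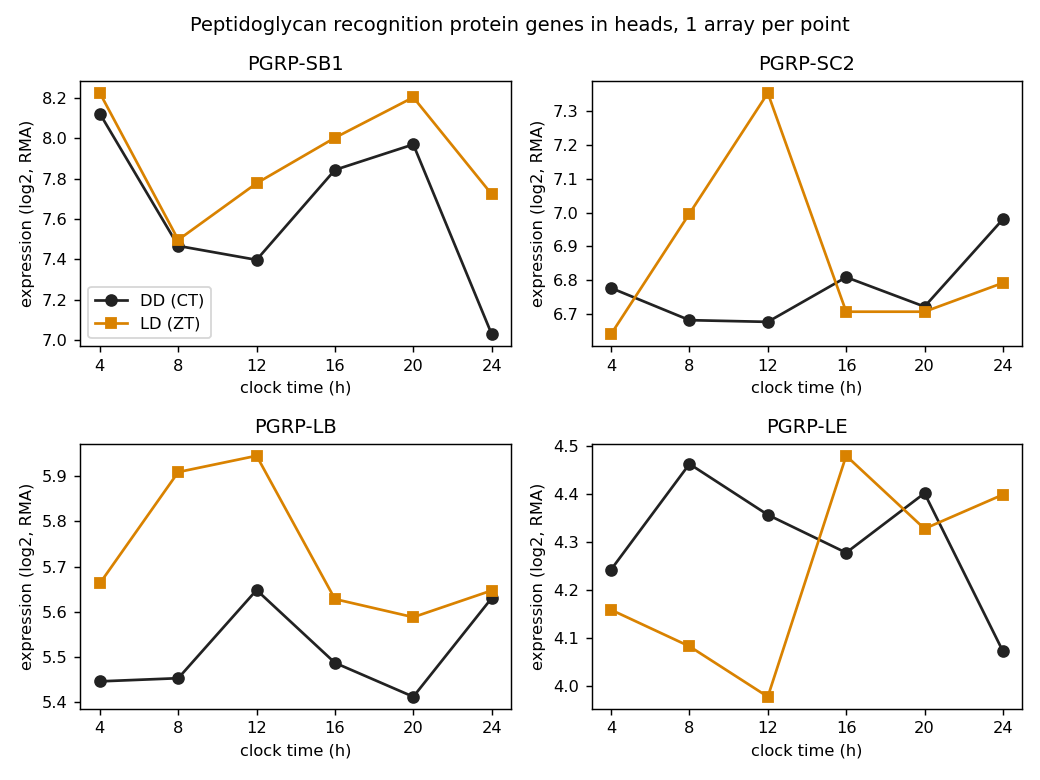
Expression (log2, RMA; vertical axes differ and do not start at 0) of the 4 measured genes against clock time, with DD as black circles and LD as orange squares, 1 array per point. PGRP-SB1 is high at 4, 16 and 20 h on both days, PGRP-SC2 is highest at ZT8 and ZT12, PGRP-LB is lower in DD at all 6 times, and the curves of PGRP-LE cross.

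The first comparison asked whether levels differed between the days. None of the 4 genes passed. PGRP-LB was the nearest, averaging 5.51 ± 0.101 in DD and 5.73 ± 0.155 in LD (log2, SD, n = 6 each). Its fitted difference was -0.217 ± 0.0714 (log2, SE), a DD over LD fold of 0.860 with a 95% interval of 0.771 to 0.959. In limma this had an unadjusted p of 0.0112 and an adjusted p of 0.902 over all 13966 probe sets. Of all tested probe sets 0.0859% passed an adjusted p under 0.05, and 4.41% had an unadjusted p under 0.05, as 1 of these 4 genes did. Under the 22 alternatives its difference stayed negative, at -0.584 to -0.181, with adjusted p between 0.318 and 1. The -0.584 came from a straight line over the hours, where the DD term is a step on top of the slope.

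PGRP-SB1 averaged 7.64 ± 0.410 in DD and 7.90 ± 0.288 in LD (log2, SD, n = 6 each). It was also lower in DD at all 6 clock times, by amounts from -0.692 at 24 h to -0.030 at 8 h. Of all tested probe sets, 1.67% were lower in DD at all 6 times, as were 2 of these 4 genes. The fitted difference of PGRP-SB1 was -0.266 ± 0.193 (log2, SE), with an interval of the fold from 0.620 to 1.12 and a limma adjusted p of 0.999. Without CT24, its lowest array, the difference was -0.096. Without CT4 it was -0.400 (unadjusted p 0.0433, adjusted p 0.997 in limma). The main fit takes clock time as a single 24-h curve, which cannot follow the highs of PGRP-SB1 shared by both days. With clock time as a block, which compares the days hour by hour, the difference was -0.266 ± 0.0902 (log2, SE). Its unadjusted p was then 0.0178 and its adjusted p 0.876 in limma.

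PGRP-SC2 averaged 6.77 ± 0.113 in DD and 6.87 ± 0.269 in LD, a fitted difference of -0.0917 ± 0.116 (log2, SE) and a fold interval of 0.785 to 1.12. Its sign rested on ZT12: without that array the difference was 0.012. With the midgut score as a covariate the difference was -0.131 ± 0.103 (log2, SE). PGRP-LE averaged 4.30 ± 0.138 in DD and 4.24 ± 0.195 in LD, a fitted difference of 0.0648 ± 0.0961 and a fold interval of 0.903 to 1.21. Both had a limma adjusted p of 0.999. No gene of the 4 had all DD arrays below or above all LD arrays, as 0.129% and 0.279% of all tested probe sets had.

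**Figure D2:**
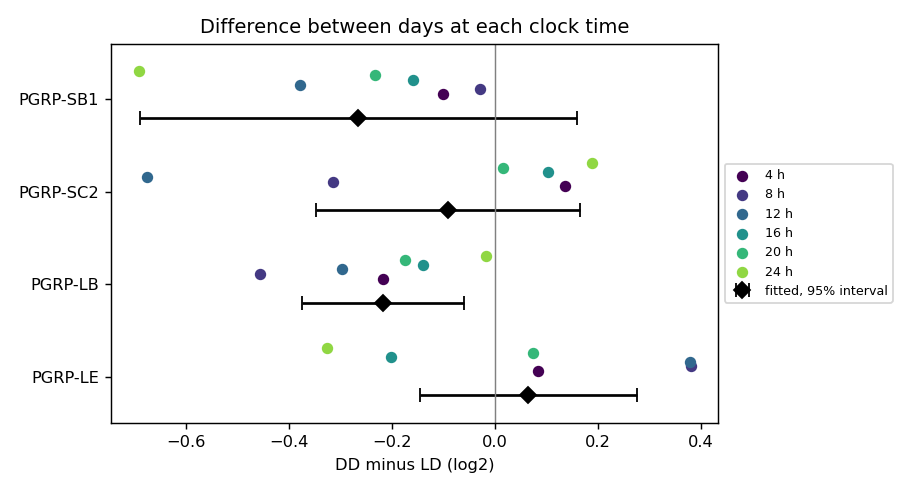
DD minus LD (log2) of each gene at each of the 6 clock times (coloured points, 1 array pair each) and from the fit (black diamonds, bars showing the 95% interval). All 6 points of PGRP-LB and of PGRP-SB1 lie below 0. In this fit, with clock time as a 24-h curve, only the interval of PGRP-LB does not span 0, before adjustment over all probe sets. With clock time as a block the difference of PGRP-SB1 was -0.266 ± 0.0902 (log2, SE, not drawn).

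Fat body and muscle markers moved with the days, and male reproductive tract markers were raised mainly on single DD arrays. All 9 measured of 10 listed fat body genes had a negative DD minus LD difference, with a median of -0.386 (log2), and 0 passed in limma (4 at an unadjusted p under 0.05). Their score ranged from -0.525 to 0.057 in DD and from -0.069 to 0.370 in LD. Muscle markers shifted further: 13 of 14 had a positive difference (median 0.710, log2), and 0 passed (9 at an unadjusted p under 0.05). Their score lay at -0.147 to 1.14 in DD and -0.623 to -0.043 in LD. All 16 measured male reproductive tract markers had a positive difference (median 0.246), and 0 passed (1 at an unadjusted p under 0.05). Their score lay at -0.489 to 1.55 in DD and -0.517 to 0.053 in LD. It was highest at CT12 (1.55) and CT4 (0.720). At 8 h it was -0.158 in DD and -0.114 in LD, and at 16 h -0.489 in DD and -0.517 in LD. The part of male tissue in the differences of the 4 genes was not tested. With the fat body score as a covariate, chosen after the data were seen, PGRP-LB differed by -0.203 ± 0.140 (log2, SE), with an unadjusted limma p of 0.178. With the muscle score it differed by -0.285 ± 0.117 (unadjusted limma p 0.0353), and with the midgut score by -0.242 ± 0.0628 (unadjusted limma p 0.00322). In the main fit it was -0.217 ± 0.0714. None of these fits of PGRP-LB passed after adjustment. In bulk heads fewer cells of a type and less RNA per cell cannot be told apart. The fat body score also drew on fit and Yp1 to Yp3, genes higher in females, and the sex of the flies was not given. The part of the sex mix of the pools in this score, and in the PGRP-LB fit that used it, was not tested. The 9 measured hemocyte markers, blood cell genes, had mean levels of 2.68 to 6.87 and a median difference of -0.092.

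**Figure D3:**
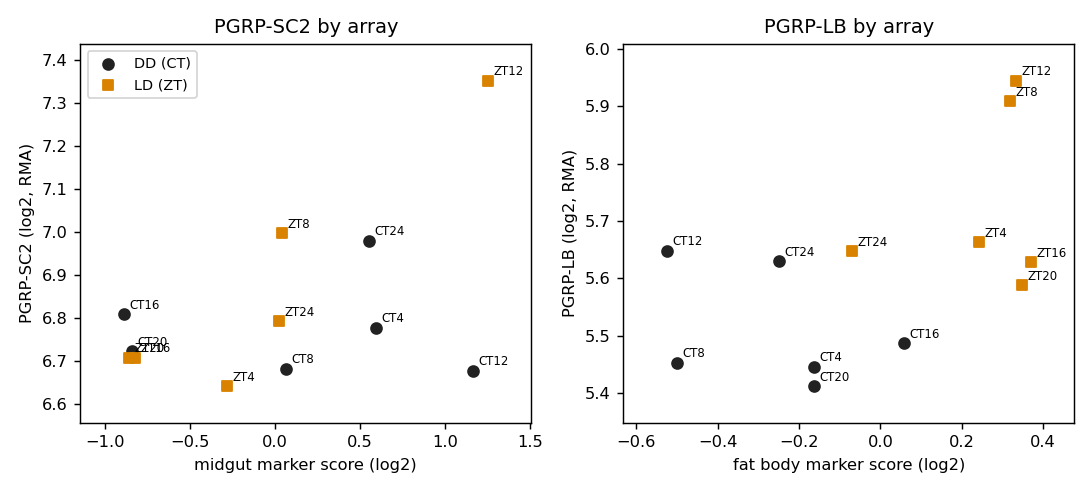
Left, PGRP-SC2 (log2, RMA) against the midgut marker score of each array; right, PGRP-LB against the fat body marker score, with DD as black circles and LD as orange squares. The midgut score is 1.16 at CT12, an array that stood apart in RNA quality, 0.551 at CT24 and 1.25 at ZT12. PGRP-SC2 is at 6.68, 6.98 and 7.35 there. Fat body scores are mostly lower in DD, as PGRP-LB is. Within DD the lowest and highest fat body scores, -0.525 at CT12 and 0.057 at CT16, go with PGRP-LB at 5.65 and 5.49. Within LD they are -0.069 at ZT24 and 0.370 at ZT16, with PGRP-LB at 5.65 and 5.63. A link within days was not tested.

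The second comparison asked whether the genes followed a 24-h rhythm shared by both days. None of the 4 passed in limma, each with an adjusted p of 0.994, and 0 of 4 had an unadjusted p under 0.05. Over all tested probe sets these shares were 0.00716% and 3.34%. PGRP-LB had a fitted amplitude, the distance from mean to peak, of 0.0979 ± 0.0505 (log2, SE) and a peak at 9.89 ± 1.97 h (unadjusted p 0.199). For PGRP-SB1 the amplitude was 0.125 ± 0.136, for PGRP-SC2 0.0753 ± 0.0824 and for PGRP-LE 0.0784 ± 0.0679. The median amplitude over all tested probe sets was 0.0719. A single 24-h curve cannot follow the repeated highs of PGRP-SB1 at 4 h and at 16 to 20 h. With the midgut score as a covariate the amplitude of PGRP-SB1 was 0.0252 ± 0.149 (log2, SE). In that fit PGRP-LE had 0.0288 ± 0.0652, PGRP-LB 0.0516 ± 0.0444 and PGRP-SC2 0.0819 ± 0.0824. The peak of PGRP-SC2 was at 17.1 h, against 10.9 h in the main fit.

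The third comparison asked whether the time course differed between the days. Fitted to each day alone, PGRP-SC2 had an amplitude of 0.104 with a peak at 23.2 h in DD and of 0.255 with a peak at 11.0 h in LD. PGRP-LE had 0.111 with a peak at 11.7 h in DD and 0.207 with a peak at 20.5 h in LD. PGRP-LB had 0.0197 in DD and 0.179 in LD, and PGRP-SB1 0.0651 in DD and 0.195 in LD. The size of the difference between the fitted curves was 0.359 ± 0.137 (log2, SE) for PGRP-SC2 and 0.293 ± 0.113 for PGRP-LE, with unadjusted p of 0.0782 and 0.0827. It was 0.164 ± 0.0967 for PGRP-LB and 0.149 ± 0.298 for PGRP-SB1, and the median over all tested probe sets was 0.156. None of the 4 passed in limma (adjusted p 0.858 or higher), and 0 of 4 had an unadjusted p under 0.05, shares that were 0% and 3.53% over all tested probe sets. Without single arrays the unadjusted p of PGRP-SC2 ranged from 0.0217 to 0.290 and that of PGRP-LE from 0.0297 to 0.226.

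Another 6 PGRP genes were listed beside these, of which PGRP-SB2, PGRP-LA and PGRP-LF had probe sets of 1 gene. PGRP-SC1a, PGRP-SC1b and PGRP-LD lay only on probe sets annotated to several genes and are given no value. PGRP-SB2, the gene next to PGRP-SB1 in the RefSeq annotation, had a range of 0.302 (log2), from 5.46 to 5.69 in DD and from 5.39 to 5.58 in LD. PGRP-LF, a membrane protein that inhibits Imd signalling, had a mean of 2.75, far below the array medians. PGRP-LA, which promotes Imd signalling in barrier epithelia, had 2 probe sets that disagreed. One ranged over 0.189, from 6.14 to 6.33 in DD and from 6.15 to 6.23 in LD. The other ranged over 1.01, from 5.48 to 6.49 in DD and from 5.504 to 6.43 in LD. The fitted DD minus LD differences of PGRP-SB2, PGRP-LA (its brighter probe set) and PGRP-LF were 0.0413 ± 0.0584, 0.0575 ± 0.0475 and 0.0707 ± 0.0627 (log2, SE), and none passed. That of the other PGRP-LA probe set was 0.151 ± 0.205, which did not pass. Its DD minus LD was 0.629 at 4 h and -0.646 at 24 h.

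Measured genes of both signalling pathways, Imd and Toll, showed no called difference. Of 17 measured Imd pathway genes, 8 were higher and 9 lower in DD, with a median of -0.002 (log2), and of 18 measured Toll pathway genes 8 were higher and 10 lower, with a median of -0.014. The median over all tested probe sets was 0. In limma 0 genes of either list passed, and 0 had an unadjusted p under 0.05, for the day difference and for the rhythm. The smallest p of the Imd list for the days belonged to Diap2, a ubiquitin ligase needed for Imd signalling, at -0.136 ± 0.0617 (log2, SE). Next came pirk, an inhibitor of PGRP receptor signalling, at 0.0768 ± 0.0456, higher in DD at all 6 times, as 2.03% of all tested probe sets were, and the adaptor gene Fadd at 0.134 ± 0.0859. In the Toll list these were grass, a protease of the cascade above Toll, at 0.148 ± 0.112, the adaptor gene tub at -0.182 ± 0.138, and GNBP2, of the glucan-binding protein family, at 0.164 ± 0.138. For rhythm the smallest p belonged to pirk, akirin and Uev1A in the Imd list, with amplitudes of 0.0656, 0.135 and 0.285. In the Toll list they belonged to Dif, an NF-κB factor, Tl, the Toll receptor, and the adaptor gene Myd88, with 0.109, 0.150 and 0.0808.

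Among 8 measured of 17 listed antimicrobial peptide genes 5 were lower in DD, with a median of -0.191 (log2). At an unadjusted p under 0.05 there were 2 of 8 for the days and 3 of 8 for the rhythm, against 4.41% and 3.34% of all tested probe sets. Listericin, an antibacterial peptide gene, was the 1 that fell, with a difference of -0.853 ± 0.105 (SE, limma adjusted p 0.0135), where 0.0859% of all tested probe sets passed. It stayed lower in all 22 alternatives and passed in 14. Its adjusted p in limma was 1 with the muscle or the fat body score, 0.198 with a straight line over the hours, and 0.0543 to 0.0719 without CT4, CT8, CT16, CT20 or ZT16. The Listericin difference was -0.932 ± 0.173 with the muscle score and -0.822 ± 0.206 with the fat body score (log2, SE). DptB, a diptericin gene and Imd target, differed by -0.475 ± 0.106 (adjusted p 0.292), and Def, a defensin gene, by 0.253 ± 0.130. Listericin, DptB and Drsl5 were lower in DD at all 6 times, as 1.67% of all tested probe sets were. Drs, the drosomycin gene, was higher at all 6, as 2.03% were, with a difference of 0.313 ± 0.171. For rhythm the smallest p belonged to Listericin, Drsl5 and Def, with amplitudes of 0.325, 0.527 and 0.265 and an adjusted p of 0.994 each.

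**Figure D4:**
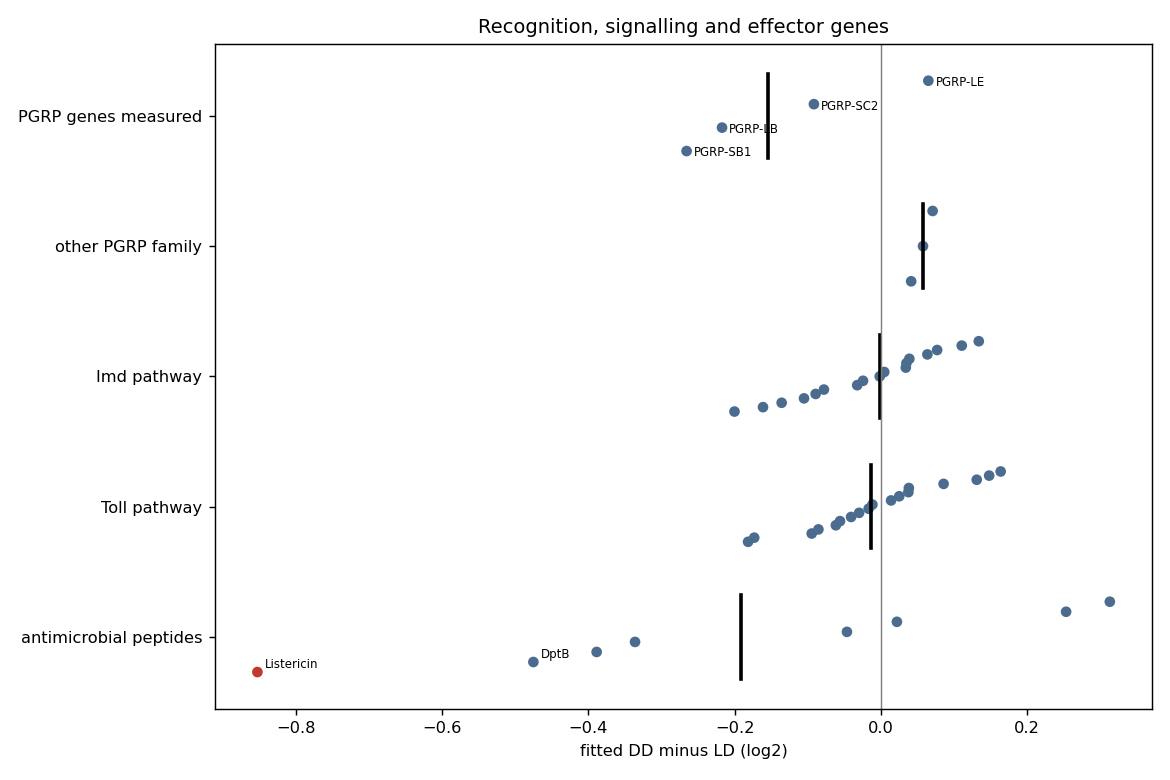
Fitted DD minus LD (log2) of the 4 measured PGRP genes, 3 other PGRP genes, 17 Imd pathway genes, 18 Toll pathway genes and 8 antimicrobial peptide genes, 1 point per gene, with black bars at the list medians. Listericin, in red, is the only gene shown that passed in limma (adjusted p 0.0135, and 1 with the muscle or the fat body score as a covariate). With those scores its difference was -0.932 and -0.822. The Imd and Toll medians lie at -0.002 and -0.014.

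Genes whose values followed each of the 4 most closely were taken by Pearson correlation over the 12 arrays, among 5062 genes with a range of at least 0.5 (log2). For PGRP-SB1 these were Iris (r = 0.917), Mpv17 (0.907) and zda (0.896). Iris, like PGRP-SB1, had its lowest value at CT24, 5.34, and its highest at ZT4, 6.85. For PGRP-SC2 they were CG13321 (0.911), CG6283 (0.911) and CG9164 (0.891). All 3 were highest at ZT12, with 7.20, 6.08 and 4.17. For PGRP-LB they were hts (0.887), CG10467 (0.881) and CG15347 (0.845). For PGRP-LE they were Rgl (0.877), CG4461 (0.851) and Cyp12b2 (0.832). The values share arrays, so RNA quality and tissue makeup enter both sides of each correlation, and the best of 5062 genes is high by selection.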

How the data were processed

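Per the labels' protocols, RNA of sieved heads was labelled with biotin, and each of 12 time points gave 1 Affymetrix Drosophila array. The authors' deposited values are log2 expression, 1 value per probe set, for which the submitters' processing notes name RMA (version not given in the sources used here). They were analysed as deposited. RMA equalises the distributions of arrays, which would hide a shift common to most genes. Signal over background was not used here, so low levels are uncertain. The number of arrays limits the precision.

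Groups and clock times came from the titles. Names came from the platform annotation, updated through RefSeq gene IDs: 12442 had 1 gene, 327 several and 1197 none, and 12393 of the first matched RefSeq. The 44 control probe sets were left out, leaving 13966. For genes with more than 1 probe set, the one with the highest mean was taken.

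Tests used limma 3.58.1 in R 4.3.3 (lmFit, eBayes) over all 13966 probe sets, with Benjamini-Hochberg adjustment at 0.05. Rhythm was an F test of cosine and sine (24 h period) with regime as covariate; DD minus LD came from the same fit (8 residual degrees of freedom). Rhythm differences were tested with both interaction terms of regime and clock time (6 residual degrees of freedom). Standard errors of amplitudes used the delta method. The fits were tested on simulated data.

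The members, lists, models and naming rule were chosen with earlier results of these data known. The rule names every probe set of the members, all other PGRP genes, the 3 pathway genes with the smallest p per list for days and for rhythm, and the 3 genes of highest correlation with each member whose range reached 0.5. Alternatives were each array left out, other scalings, a dim filter, covariates, each day alone, clock time as a block and a straight line over the hours.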

Additional observations from a re-analysis of the deposited data

Results flagged for a closer look

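Of 72 sets of 6 arrays examined (a gene or score on 1 day), 8 (11.1%) had 1 array apart from the other 5 by a gap, as a share of the whole range, past Dixon's 95% critical value, and chance gives about 5%. PGRP-SB2 was 5.69 at CT12, against 5.53 or less on the other DD arrays. No set of PGRP-SB1, PGRP-SC2, PGRP-LB or PGRP-LE had an array apart. Among antimicrobial peptide genes, DptB was 7.73 at CT16 (next DD array 7.42) and 7.43 at ZT24 (next LD array 7.86), Def was 7.64 at CT4 (next 7.10) and Listericin 9.48 at ZT24 (next 9.13). Among array measures, the 3' minus 5' control signal was 3.12 at ZT4 (next LD array 2.20). The photoreceptor score was -0.698 at CT12 (next DD array 0.023), and the fat body score was -0.069 at ZT24 (next LD array 0.243).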

How the results depend on the processing

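None of the 4 genes passed in the 20 alternatives for rhythm, 22 for the days or 17 for rhythm differences; PGRP-LE was not in the tests without dim probe sets. Over all probe sets the 1 rhythmic call became 0 without ZT4 and CT12, in either day alone and without any 1 array but CT8 or CT16 (range 0 to 1), and 2 with the control transcript covariate. The 12 calls between days became 30 with that covariate and 0 with the muscle score, the fat body score or a straight line over the hours. The muscle score, the fat body score and the hours changed with the days, so they overlapped with regime and widened its error. For PGRP-LB the SE was 0.0714 in the main fit and 0.117, 0.140 and 0.212 with them. The loss of calls therefore cannot tell tissue makeup or a steady change over the hours apart from regime. Leaving out 1 array gave 1 to 22. Counts off by over 1.5 times were 22 (CT24 left out), 7 (ZT12), 6 (ZT20), 5 (each of CT8, CT16 and ZT16), 4 (CT20) and 1 (CT4). Clock time as a block (replicate block) gave 11; PGRP-SB1 then differed by -0.266 ± 0.0902 (unadjusted p 0.0178, adjusted p 0.876 in limma), and the block changed no call of the 4 genes. Departures from the mean of each day correlated at over 0.1 in 5 of 6 pairs of the same clock time (-0.003 to 0.547). Only 2 of 6 DD arrays correlated best with the LD array of their own time. Uncalled DD minus LD differences that changed sign were PGRP-SC2 without ZT12 (0.012, in a range of -0.161 to 0.012 over arrays left out), PGRP-SB1 (0.060) and PGRP-LE (-0.00291) with the muscle score, PGRP-SB1 (0.129), PGRP-SC2 (0.0729) and PGRP-LE (-0.181) with the fat body score, and PGRP-SB1 with a straight line (1.55 ± 0.274, unadjusted p 0.000202, adjusted p 0.162 in limma). In the straight-line fit the hours ran on from LD into DD. Its DD term was thus a step on top of the fitted slope, not the difference between the day means. The cause of the other sign changes was not tested. PGRP-LB stayed negative in all 22. The 4 mean levels moved by less than 1 SD under both other scalings.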
